A study of Sus scrofa domesticus with 4 samples.

Results

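The genes described here are 10 genes of T lymphocytes and natural killer (NK) cells that were measured in slices of pig endometrium kept in culture with or without orexin A (OXA), a neuropeptide hormone. They were chosen by name: the T cell receptor complex and its partners (CD3E, CD3G, CD247, CD8A and LCK), 3 granule proteases (GZMA, GZMB and GZMH), the granule membrane protein NKG7 and the NK receptor KLRK1. Earlier results of these data were known when the genes were chosen, so counts over the 10 genes are descriptions. A probe was assigned to one of them when its RefSeq accession belonged to that pig gene. The arrays held 17 such probes among 43603, and all 10 genes were found among 3029 genes with a name. Of the 17 probes 16 passed a filter on dim spots, at least 1 for every gene; the second probe of CD8A did not.

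The tissue came from 4 pregnant gilts, Large White x Polish Landrace, 7 to 8 months old and on days 15 to 16 of gestation. Slices of about 100 mg and 3 mm thickness were kept for 2 h and then for another 24 h either with OXA at 10 nM, by the sample labels, or without any addition; the design text gives 10 µM. Each of 4 two-dye arrays carried 1 OXA-treated and 1 untreated RNA, so a value is a log2 ratio of OXA over control, below 0 where the gene was lower with OXA, with n = 4 arrays. By the dye labels of the single samples OXA was labelled with Cy5 on arrays 1 and 3 and with Cy3 on arrays 2 and 4. The labelling protocol instead places OXA in Cy5 for every sample. Which gilt gave each RNA is not in the labels, so the spread between arrays cannot be assigned to animals. The p-values measure the part of it left after a constant dye effect is fitted, moderated towards the spread of all probes. The SDs over arrays given beside means still hold the dye effect.

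T cells recognise antigen through a receptor that signals by the CD3 chains and CD247 (the zeta chain), which the kinase LCK phosphorylates; CD8A is part of the coreceptor that brings LCK to the receptor on cytotoxic T cells. Cytotoxic T cells and NK cells kill through granules that hold serine proteases, the granzymes. In the pig these cells gather in the endometrium when the conceptus attaches, at a time when the trophoblast secretes interferons. In a whole slice, fewer such cells and less RNA per cell cannot be told apart.

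The genes were dim in Cy3. The median raw intensity of their brightest probes was 322 to 435 in Cy3 on the 4 arrays, against 154 to 251 for the negative-control spots, and 322 to 2500 in Cy5, against 68 to 74. Array 1 lay on another slide, was scanned 71 days after the others and had the fewest probes well above background in Cy3, 31.7% against 52.1% to 56.7%. On it the control RNA of 8 of the 10 genes was not well above background; the exceptions were CD247 and GZMB. On array 4 the OXA reading of GZMA was not well above background. No spot was saturated. The number of arrays limits the precision.

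No gene of the T cell receptor complex passed the test for a difference between OXA and control, and their ratios turned with the array. CD3E, a signalling chain of the receptor, was -0.12, -0.57, 0.56 and -0.99 on arrays 1 to 4. CD3G, another CD3 chain, was 0.49, -0.07, 1.50 and -1.71. CD247, the zeta chain, was -0.74, -0.80, 0.63 and -0.13. Each of these 3 chains was above control on array 3 and below it on arrays 2 and 4, while on array 1 CD3G was above control and the others below. CD8A, the coreceptor chain, was -0.17, -0.96, 1.27 and -1.96. LCK, the kinase that starts receptor signalling, was -0.14, -1.001, 0.87 and -1.42. Both were above control on array 3 alone.

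The mean over the 4 arrays was -0.28 ± 0.67 (SD, n = 4) for CD3E, 0.05 ± 1.34 for CD3G and -0.26 ± 0.67 for CD247. It was -0.46 ± 1.36 for CD8A and -0.42 ± 1.01 for LCK. The spread over arrays was larger than the mean in all 5. In limma's fit with an OXA and a dye coefficient, adjusted by Benjamini-Hochberg over 26927 probes, LCK had the lowest adjusted p of the 10 genes (0.683; SE 0.21; unadjusted p = 0.0770) and CD3G the highest (adjusted p = 0.969; SE 0.28). The 95% interval of the fold of OXA over control ran from 0.535 to 1.04 for LCK, from 0.481 to 1.11 for CD8A and from 0.667 to 1.61 for CD3G. These SEs and intervals draw part of their spread from all probes, by limma's moderation. With an intensity trend and robust fitting the SE was 0.34 for LCK (limma unadjusted p = 0.238), 0.45 for CD8A and 0.43 for CD3G. The main fit gave 0.21, 0.27 and 0.28, so the intervals depend on the moderation. For CD247 the SE was 0.24 against 0.25. The second probes did not always follow: for CD247 it gave -0.19, with the sign of the brighter probe on 4 of 4 arrays, but the dimmer LCK probe gave -0.13 with an SD of 0.09, and the dimmer CD3G probe gave -0.10 and shared the sign on 1 array.

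**Figure D1:**
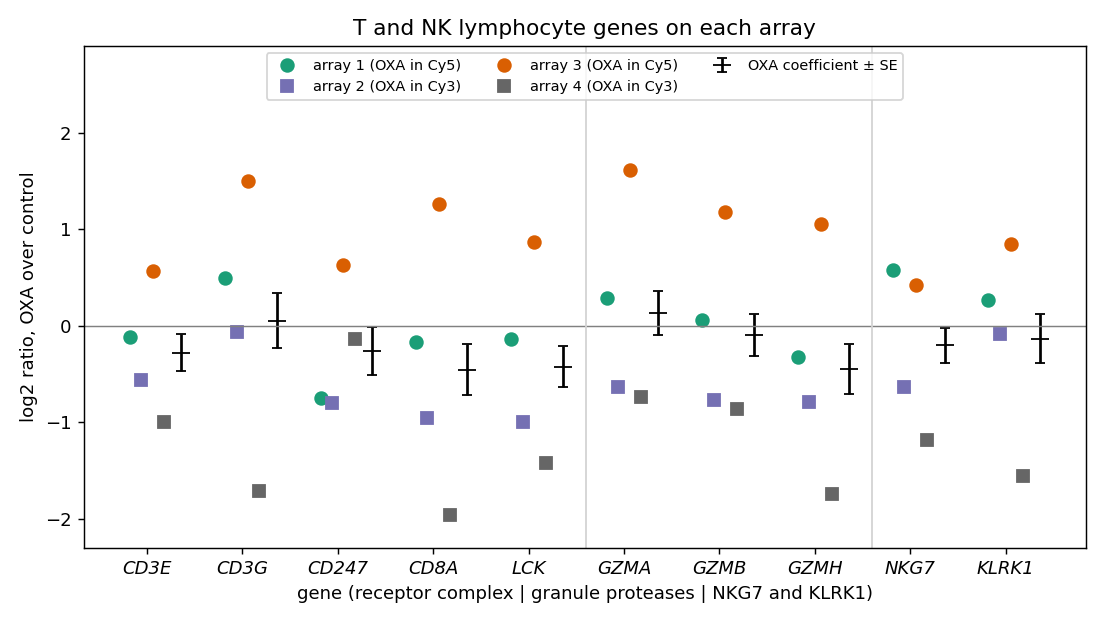
Log2 ratio of OXA over control (vertical axis) for each of the 10 genes (horizontal axis) on each array; circles are arrays with OXA in Cy5, squares those with OXA in Cy3, and black marks give the OXA coefficient with its standard error. By the brightest probe, which is shown, all 10 genes lie above 0 on array 3 and below 0 on arrays 2 and 4. The coefficients lie between -0.46 and 0.13.

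The granule proteases did not pass the test either, and their signs on arrays 2 to 4 were those of the receptor genes. GZMA, granzyme A, a tryptase-like protease, was 0.29, -0.63, 1.61 and -0.74 on arrays 1 to 4. GZMB, granzyme B, which activates caspases in target cells, was 0.06, -0.77, 1.18 and -0.87. GZMH, a granzyme whose gene lies next to GZMB in the reference assembly, was -0.32, -0.79, 1.06 and -1.75. All 3 were high with OXA on array 3, low on arrays 2 and 4, and within 0.32 of control on array 1. Their means were 0.13 ± 1.09 (SD, n = 4), -0.10 ± 0.95 and -0.45 ± 1.17, with limma adjusted p of 0.895, 0.918 and 0.688. The interval of the fold was 0.764 to 1.57 for GZMA, 0.667 to 1.31 for GZMB and 0.488 to 1.10 for GZMH. These rest on moderated SEs of 0.23, 0.22 and 0.26. With an intensity trend and robust fitting the SEs were larger, at 0.36, 0.32 and 0.38.

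GZMB was the protease read well above background in all 8 readings, 2 dyes on 4 arrays. Its background-subtracted intensity was 1154, 2746, 9352 and 1133 in OXA RNA and 407, 14365, 971 and 5016 in control RNA on arrays 1 to 4, before the dyes were brought to a common scale. The RNA in Cy5 was thus the brighter one on every array, whichever treatment it came from. The second GZMB probe gave -0.12 against -0.10 and the second GZMH probe -0.28 against -0.45, both with matching signs on 4 of 4 arrays. The second GZMA probe gave 0.06 against 0.13, matching on 3 arrays. The reference names 2 genes GZMA, and both probes carry the accession of the same one. Signal from the other copy, or shared between GZMB and GZMH, cannot be told apart here, so the values of these 3 genes are uncertain in that respect.

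NKG7, a membrane protein of cytotoxic granules, was 0.58, -0.63, 0.42 and -1.18 on arrays 1 to 4, a mean of -0.20 ± 0.85 (SD, n = 4). KLRK1, the activating receptor NKG2D of NK and CD8 T cells, was 0.26, -0.09, 0.85 and -1.56, a mean of -0.13 ± 1.03. Both were above control on the arrays with OXA in Cy5 and below it on those with OXA in Cy3, and neither passed limma's test (adjusted p = 0.778 and 0.903).

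Levels of each gene overlapped between OXA and control RNA in 10 of 10 genes. That count sets aside the pairing of RNAs on an array. The share over all probes was not taken, so the count says nothing particular to these genes. After loess and scaling between arrays, CD8A stood at 8.88 ± 1.15 (SD, n = 4) log2 intensity units with OXA and 9.34 ± 1.05 without. GZMB stood at 11.25 ± 1.13 and 11.35 ± 1.36, and GZMA at 8.40 ± 1.60 and 8.27 ± 1.00. The level of a gene also differed between arrays: GZMA was 10.56 with OXA and 8.95 without on array 3, but 6.99 and 7.73 on array 4. CD247 had its highest control level on array 1, 10.88. Of the other genes 8 were not well above background in that RNA, so their low points there are bounds only.

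**Figure D2:**
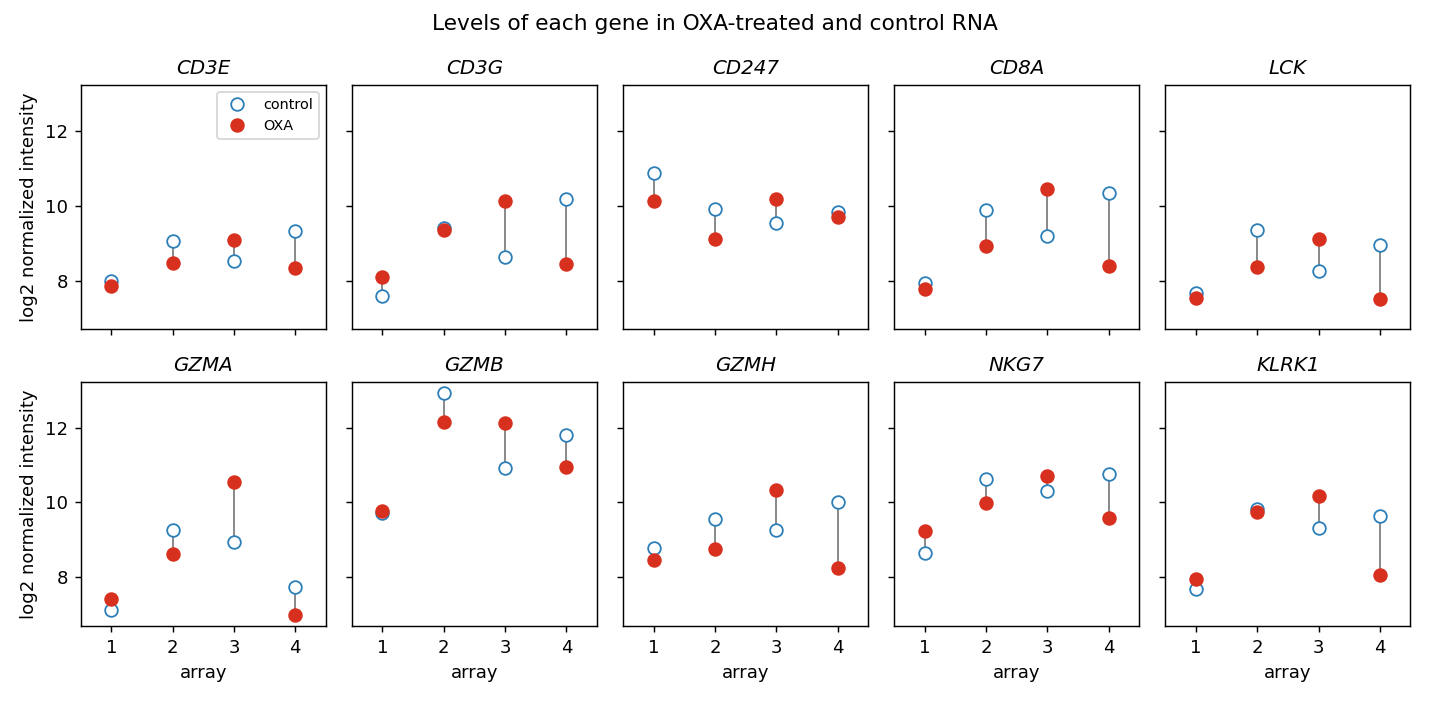
Log2 normalized intensity (vertical axis) of each gene in OXA-treated (filled) and control (open) RNA on arrays 1 to 4 (horizontal axis); grey lines join the 2 RNAs of an array. The filled point lies above the open one on array 3 and below it on arrays 2 and 4 in all 10 panels; levels are not comparable between genes, whose probes differ.

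Over the 10 genes, 8 were below 0 and 2 above in the fit, with a median of -0.23, against 0.03 over all 26927 probes and -0.05 over 2407 named genes, of which 59.7% were below 0. That median depended on single arrays: it was -0.04 without array 1, -0.37 without array 2, -0.41 without array 3 and -0.12 without array 4. None of the 10 passed the adjusted threshold, as no probe did (0% of probes; 1789 probes had an unadjusted p under 0.05 in limma). None met a looser rule either, a fold of 1.2 or more together with an unadjusted p below 0.05. That rule was met by 6.64% of probes, 4.32% as higher and 2.32% as lower, and by 1.25% of named genes as higher and 5.15% as lower. The fold limit removed no probe in this fit, since all 1789 with such a p met it. At that p 1346 of the 26927 probes would be expected by chance. By the brightest probe none of the 10 had the same sign on 4 of 4 arrays, which 12.9% of probes and 11.9% of named genes had. The dimmer LCK probe did, at -0.12, -0.25, -0.02 and -0.11. Without array 3, 4 genes passed that rule as lower (CD8A at -0.81, GZMH at -0.80, LCK at -0.67 and CD247 at -0.61), against 4.6% of probes (11% passed as higher). Without array 2, CD8A (-0.71) and GZMH (-0.69) did, against 1.57% of probes (1.26% as higher). With 3 arrays, 1 dye orientation has a lone array, which is assumed to vary like the rest. All 10 genes were above 0 on array 3, and leaving it out lowered every coefficient but that of NKG7 (-0.17 against -0.20). The count without array 3 thus depends on which array was removed and is not a separate result. The shares over named genes were not taken for the fits on 3 arrays.

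The 10 genes varied much between arrays. The SD over the 4 ratios was 0.67 to 1.36, against a median of 0.36 over all probes, and exceeded that of 88.8% to 99.5% of probes. On array 3 the 10 genes ran from 0.42 (NKG7) to 1.61 (GZMA), with a median of 0.96, and on array 4 from -1.96 (CD8A) to -0.13 (CD247), with a median of -1.30. On array 2 they ran from -1.001 (LCK) to -0.07 (CD3G), with a median of -0.70, and on array 1 from -0.74 (CD247) to 0.58 (NKG7), with a median of -0.03. The medians of all probes on those arrays lay between -0.02 and 0.10. By their brightest probes all 10 genes were above 0 on array 3 and below 0 on arrays 2 and 4. This combination was found in 16.8% of probes and 20.4% of named genes. The dimmer kept probes of CD247, GZMA, GZMB and GZMH shared it. Those of LCK and CD3G did not, at -0.02 and -0.03 on array 3. This combination was noticed in the values and is given as a description.

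Read by dye, the same values were higher in Cy5 than in Cy3 for all 10 genes on arrays 2 to 4, which share a slide. On array 1, 5 genes were higher in Cy5 and 5 lower. The median of Cy5 over Cy3 was -0.03, 0.70, 0.96 and 1.30 on arrays 1 to 4. The dye coefficient, the mean log2 ratio of Cy5 over Cy3, was above 0 for 10 of 10 genes, against 14256 of 26927 probes. It ran from 0.20 (CD247) to 1.00 (CD8A) with a median of 0.75, against a median of 0.02 over all probes. Its size depended on the processing: the median was 1.33 with median centring in place of loess, and 0.15, with 9 of 10 above 0, with background parameters fitted on all spots. For NKG7 it was 0.70 (SE 0.18; limma unadjusted p = 0.00376; adjusted p = 0.680), for LCK 0.79 (SE 0.21) and for GZMB 0.72 (SE 0.22). These are values of the brightest probes. The dimmer kept probe gave 0.06 for LCK and -0.21 for CD3G, where the brightest gave 0.79 and 0.94. It gave 0.13 for CD247, 0.50 for GZMA, 0.61 for GZMB and 0.60 for GZMH. At an unadjusted p under 0.05, 9 of the 10 brightest probes, all but that of CD247, had a dye coefficient above 0. This was so for 3.45% of probes and 6.31% of named genes. None passed after adjustment, nor did any probe. A treatment effect that is alike on all arrays cancels in this coefficient, and a constant dye effect cancels in the OXA coefficient. Differences between the animals or pieces of tissue on an array do not cancel in either, and their part in these values was not tested.

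**Figure D3:**
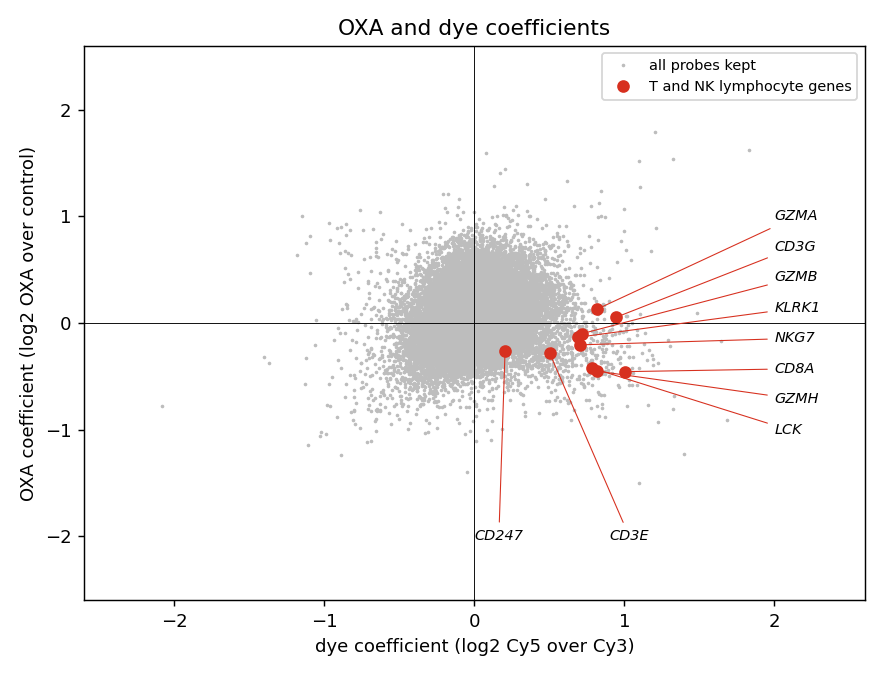
OXA coefficient (vertical axis, log2 OXA over control) against dye coefficient (horizontal axis, log2 Cy5 over Cy3) for all 26927 probes (grey) and the brightest probe of each of the 10 genes (red, joined to its name by a line). The 10 genes lie to the right, between 0.20 and 1.00 on the dye axis, and between -0.46 and 0.13 on the OXA axis.

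The 2 accounts of the dyes give opposite directions for 8 of the 10 genes; CD3G and GZMA were above 0 under both. If OXA was in Cy5 throughout, as the labelling protocol is worded, the OXA value of a gene is its dye coefficient: all 10 genes were above 0, with a median of 0.75, and 9 passed the looser rule as higher, against 3.11% of probes (1.34% as lower). None passed after adjustment (limma adjusted p from 0.978 to 0.984). The share over named genes was not taken for this reading. In the main fit 6.31% of named genes had a dye coefficient above 0 at a limma unadjusted p under 0.05. Under the sample labels the median was -0.23. In the authors' deposited table the ratios of arrays 1 and 3 run with Cy5 over Cy3 and those of arrays 2 and 4 against it (slopes of -1.005 and -1.03), which is the orientation of the sample labels. Over all 26927 probes the ratios of OXA over control by the sample labels correlated between arrays 1 and 2, of opposite dye, at r = 0.40, and between arrays 3 and 4, also of opposite dye, at r = -0.23. The other pairs of opposite dye gave -0.12 (arrays 1 and 4) and -0.01 (arrays 2 and 3), and the pairs of one dye gave 0.20 (arrays 1 and 3) and 0.04 (arrays 2 and 4). These correlations are across probes, which are not independent.

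Receptor complex genes and granule proteases were then set side by side. The mean ratio of the 5 receptor complex genes was -0.14, -0.68, 0.96 and -1.24 on arrays 1 to 4. The mean of the 3 proteases was 0.01, -0.73, 1.28 and -1.12. Both groups therefore went the same way on arrays 2, 3 and 4. The receptor genes lay below the proteases by 0.14 on array 1 (a difference of -0.14), by 0.32 on array 3 (-0.32) and by 0.13 on array 4 (-0.13), and above them by 0.05 on array 2. The mean difference was -0.13 ± 0.15 (SD, n = 4), smaller than its spread over arrays, while each group's own mean varied with an SD of 0.94 and 1.06. Leaving out 1 array gave differences from -0.18 (without array 1 or 2) to -0.09 (without array 3 or 4). The sign on single arrays turned with the processing. With Agilent's own log ratio the difference was 0.25 on array 1 and -0.03 on array 2, for a mean over arrays of -0.08. On array 4 it was 0.015 with the mean of all kept probes of a gene and 0.09 with background parameters fitted on all spots. Within the receptor group CD247 departed most on array 4, at -0.13 where the other 4 genes were at -0.99 to -1.96. Among the proteases GZMH departed there, at -1.75 beside -0.74 and -0.87.

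**Figure D4:**
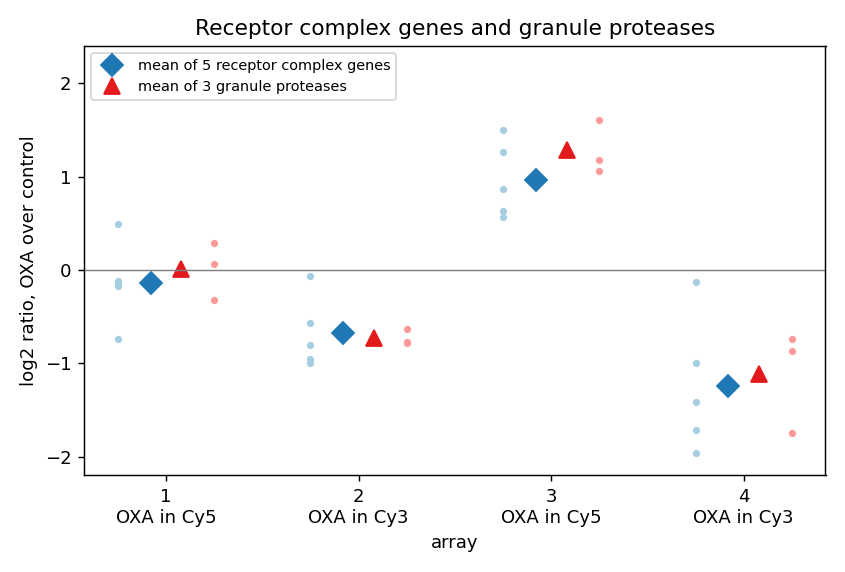
Mean log2 ratio of OXA over control (vertical axis) of the 5 receptor complex genes (diamonds) and the 3 granule proteases (triangles) on each array (horizontal axis), with single genes as small dots. The means of the groups lie within 0.32 of each other on every array, while both move between about -1.24 and 1.28 from array to array.

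The wider T cell list held 50 genes, of which 27 were on the array under their symbol and 19 were measured. In it 17 of 19 were below 0, with a median of -0.22; 0 passed the adjusted threshold and 1 of 19 was lower by the looser rule, near the 5.15% of all named genes. That gene was FYN, a kinase related to LCK, at -0.75 (SE 0.30; limma adjusted p = 0.683), with -0.34, -0.33, 0.08 and -2.41 on arrays 1 to 4, so that array 4 carried most of it. The other 14 genes of the list, members left out, had a median of -0.19, and 10 of 14 were above 0 on array 3 and below 0 on arrays 2 and 4, against 20.4% of named genes. The T cell genes CD2 (an adhesion receptor; 0.85, -0.69, 0.62 and -1.26) and ICOS (a costimulatory receptor; 0.76, -0.51, 0.98 and -1.60), chosen after their values were seen, went below and above control on the same arrays as NKG7 and KLRK1. FOXP3 (0.56, -0.11, -0.37 and 0.26), IL7R, STAT4 and IL12RB1 lacked the signs of the members on arrays 2 to 4.

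The cytotoxic granule and NK list held 44 genes, of which 25 were on the array under their symbol and 22 were measured. In it 19 of 22 were below 0, with a median of -0.20, and 0 passed the adjusted threshold. By the looser rule 2 of 22 were lower, against 5.15% of named genes: FCGR3A (CD16, an antibody receptor of NK cells and macrophages) at -0.58 (SE 0.23) and CCL5 (a chemokine made by activated T cells) at -0.58 (SE 0.25), both with a limma adjusted p of 0.683. FCGR3A was 0.50, -0.99, 0.51 and -2.32 on arrays 1 to 4, and CCL5 was -0.11, -0.90, 0.87 and -2.16. Without members, 13 of 17 genes showed the combination of signs described above, among them the granzymes GZMK (0.69, -0.51, 0.69 and -1.64) and GZMM (-0.59, -0.59, 0.61 and -1.19), named after their values were seen. IL18 (0.54, -0.45, 0.16 and 1.39), TNFSF10, LAMP1 and RAB27A did not show it. Both lists were drawn up with earlier results of these data known and are described by counts alone.

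Markers of other cell types moved on the same arrays, and not in one way. Of 13 myeloid markers 8 were measured; their median was 0.54, -0.60, -0.11 and -1.81 on arrays 1 to 4, and 8 of 8 had an OXA coefficient below 0 (median -0.42) and a dye coefficient above 0 (median 0.60). AIF1, a macrophage protein, was 0.62, -0.51, -0.08 and -2.09, and CD14, the monocyte receptor for bacterial lipopolysaccharide, was -0.79, -1.17, 0.62 and -0.13. Of the 8 myeloid markers 3 had the combination of signs of the lymphocyte genes (37.5%, against 20.4% of named genes). By the looser rule 2 of 8, C1QB (a complement component made by macrophages; -0.73) and CD86 (a costimulatory ligand; -0.57), were lower, against 5.15% of named genes. The myeloid list shares TYROBP, an adaptor of NK and myeloid receptors, with the NK list. Of 10 epithelium markers 7 were measured, with medians of -0.74, -0.27, -0.24 and 0.61 and a dye coefficient below 0 in 7 of 7. CLDN3, a tight junction protein, was -1.44, -0.60, -0.43 and 0.61, and EPCAM, an epithelial adhesion protein, was -0.74, 0.23, -0.24 and 0.55. On array 4 the epithelium was therefore higher where the lymphocyte genes were lower.

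The 3 stromal markers measured of 8 had medians of 1.39, 0.14, -0.25 and 0.14, with the matrix genes DCN at 1.39, 0.14, -0.46 and 0.65 and COL1A2 at 1.40, -0.49, -0.25 and 0.14; they were high on array 1, where the lymphocyte genes had a median of -0.03. LUM, a matrix proteoglycan, was higher by the looser rule (0.57), as were 1.25% of named genes. The 5 endothelium markers of 7 had medians of 0.64, -0.47, -0.51 and -0.45, with PECAM1 at 0.65, -0.53, -0.94 and -0.46 and CDH5 at -0.02, -0.03, -0.54 and -0.52. The 4 smooth muscle markers of 7 had medians of 0.06, -1.10, 0.29 and -0.38, with ACTA2 at -0.45, -0.50, 0.26 and -0.21 and DES at 1.35, -2.02, 0.27 and -0.44. The smooth muscle markers shared the combination of signs of the lymphocyte genes in 4 of 4. Of 8 B cell markers 1 was measured, CD79A, at -0.76, -0.34, -0.11 and -0.41, and of 4 red cell markers 0 were found on the array under their symbol. Of 4 mast cell markers 1 was measured, KIT, at -0.38, 0.25, -0.63 and -0.34. The 4 conceptus markers measured of 7 had a median coefficient of 0.10, with TFAP2C (a trophoblast transcription factor; 0.79) higher and IL1B2 (a conceptus interleukin; -0.45) lower by the looser rule, against 1.25% and 5.15% of named genes. The part of tissue makeup in the values of the lymphocyte genes was not tested.

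**Figure D5:**
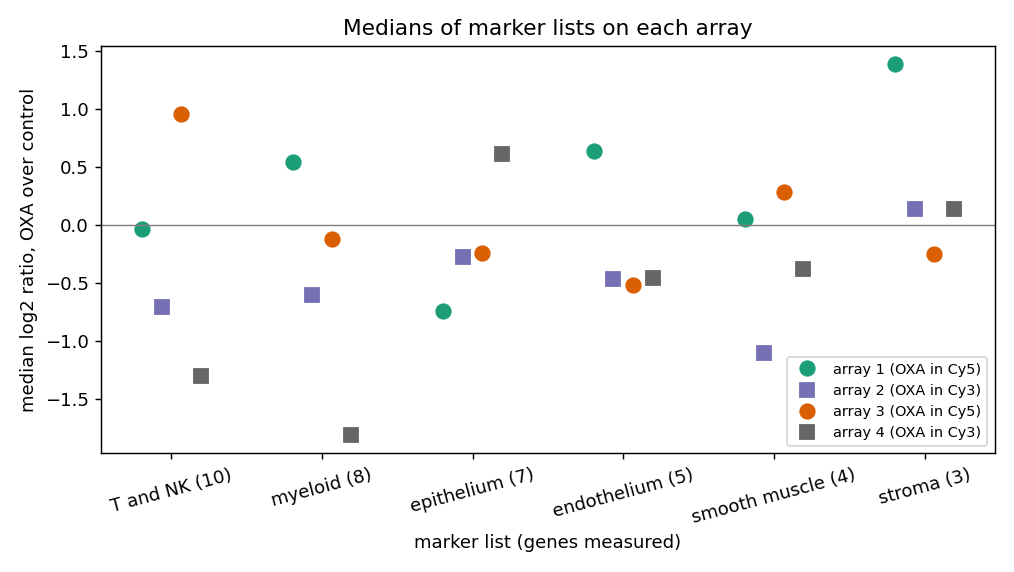
Median log2 ratio of OXA over control (vertical axis) of marker lists for 6 cell types (horizontal axis, number of genes measured in brackets) on each array. The T and NK genes spread from -1.30 on array 4 to 0.96 on array 3, the epithelium markers run the other way on array 4 (0.61), and the stromal markers stand at 1.39 on array 1.

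Genes outside the list that ran most like a member over the 4 arrays, by the root mean square difference of their ratios among 2397 named genes, included other immune genes and genes of other kinds. SPARCL1 (0.33 from GZMA), HP (0.15 from NKG7) and FTL (0.21 from LCK) were among the 5 nearest. For CD3E the nearest were PSTPIP1 (an adaptor of blood cells; difference 0.11) and SERPINB9 (the inhibitor of granzyme B; 0.11), and CD3D, another chain of the same receptor, was close at 0.14. For CD8A they were S100A12 (a calcium-binding protein of granulocytes; 0.19) and CCL5 (0.22). For GZMB they were CDK1 (the mitotic kinase; 0.14) and LAG3 (an inhibitory receptor of T cells; 0.21), and LAG3 was also second for GZMA (0.31), behind PCLAF (a replication factor; 0.29). For NKG7 the nearest were CXCL16 (a chemokine; 0.11) and SLA-DRB1 (a class II antigen presentation chain; 0.15), and CD2 was among the 5 nearest (0.17).

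The named neighbours of the other members lay at 0.16 to 0.37. For LCK they were CCL8 (a chemokine; 0.18) and IL16 (a lymphocyte attractant; 0.20), for GZMH IL16 (0.24) and S100A12 (0.25), and KLRK1 had NOS2 (the inducible nitric oxide synthase; 0.29) and GZMK (0.31) among its nearest. For CD3G they were C14H10orf128 (0.37) and ICOS (0.37). For CD247 the nearest were BIRC5 (survivin, a cell division protein; 0.16) and GCLM (a subunit of glutathione synthesis; 0.18). The monocyte receptor CD14 was close to CD247 too, at 0.19. The members were not always each other's nearest. Of the other named genes 615 lay closer to CD247 than its nearest member, CD3E, did. The count was 63 for CD3E, 56 for NKG7 and 0 to 8 for the rest. The distance is not scaled to a gene's spread. CD247, CD3E and NKG7 had the lowest SDs over arrays of the 10 genes (0.67, 0.67 and 0.85). Genes with small ratios lie closer to such members, so the counts are not comparable between members. With 4 arrays such distances are descriptions of these libraries.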

How the data were processed

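The deposited scanner files give, for spot and local background in both dyes, the median pixel intensity, and a background-subtracted intensity. Agilent Feature Extraction 10.7.3.1 made them, as their headers state. A processed log10 ratio of Cy5 over Cy3 is given too, per the file headers. The authors' series table has log2 ratios; set against the scanner ratios over 43420 probes it had slopes of 1.06, -1.00, 1.04 and -1.03 on arrays 1 to 4, which gives OXA over control by the sample labels, with medians of -0.17, 0.06, -0.06 and 0.09, and its centring is unknown.

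Background was corrected by normexp (offset 50) and arrays were normalized by loess in limma 3.58.1 (R 4.3.3). Fitted on all spots, normexp turned a signal of 0 into 133 to 2431, because 3521 to 5055 spots an array are marked as outliers, some with a local background far above the spot. Its parameters were therefore fitted on the unmarked spots, a choice made after the data were seen; fitting on all spots is given as an alternative. The probes used for GZMB and GZMH had such a background mark on 1 array and were kept.

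Log2 ratios were fitted with an OXA and a dye coefficient (2 residual degrees of freedom, 9.18 after moderation) and tested by eBayes with Benjamini-Hochberg adjustment. Control spots and spots marked as feature outliers were left out, and a probe was kept if 4 or more of its 8 readings were well above background (26927 probes; 135 were lost to outlier spots). The kept probe of highest mean brightness stands for a gene. Names came from RefSeq accessions matched to assembly Sscrofa11.1 (6700 of 7125 probes); the headers name no build, so no coordinates are given. The fit was tested on simulated data. Members and lists were chosen with earlier results of these data known. All members are named. Of the wider lists those past a call rule, of marker lists the 2 brightest genes, and for likeness the 5 nearest genes were eligible. CD2, ICOS, FOXP3, IL7R, STAT4, IL12RB1, GZMK, GZMM, IL18, TNFSF10, LAMP1 and RAB27A fall outside this rule and were named after their values were seen. Alternatives covered background, normalization, filters, dyes, moderation, probe choice, slide and single arrays.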

Additional observations from a re-analysis of the deposited data

How the results depend on the processing

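Under the alternatives run none of the 10 genes passed limma's adjusted threshold, but the sign of several turned. If OXA was in Cy5 throughout, CD247 was 0.20, CD3E 0.50, CD8A 1.00, GZMB 0.72, GZMH 0.82, KLRK1 0.69, LCK 0.79 and NKG7 0.70, the median was 0.75 and 9 genes passed the looser rule; this follows from the construction, since no dye coefficient can then be fitted. Within the slide of arrays 2 to 4, which is the fit without array 1, CD247 was 0.080, GZMB 0.18 and KLRK1 0.014, 8 probes passed the adjusted threshold and 508 the looser rule. Leaving out 1 array in turn gave -0.61 to 0.080 for CD247, -0.36 to 0.46 for CD3G, -0.20 to 0.46 for GZMA, -0.38 to 0.18 for GZMB and -0.50 to 0.24 for KLRK1, 0 to 387 probes past the adjusted threshold, 508 to 4207 past the looser rule, 0 to 4 member genes past the looser rule and medians of -0.41 to -0.04. CD3G was -0.022 as the mean of its probes, and KLRK1 was 0.019 with normexp fitted on all spots. The looser count of probes, 1789 as reported, was 2856 with median centring, 832 when all 8 readings had to be well above background (where CD247 and GZMB alone of the 10 genes were left, so no median was taken) and 356 with normexp fitted on all spots, a setting added after seeing the data. In that last fit the median of the 10 genes was -0.08, the array medians were 0.01, -0.31, 0.21 and -0.15, and the difference of receptor genes and proteases was -0.04. With Agilent's own ratios the median was again -0.23, as it was in the authors' table, with array medians of 0.48, -0.81, 1.17 and -1.60. The cause of the changes with single arrays was not tested. Dim Cy3 readings on array 1 limit the ratios of 8 genes there. Every value already pairs the RNAs of an array, so no replicate block was added.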
